A study of Mus musculus with 8 samples.

Results

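The matrix proteases and their inhibitors are 41 genes, chosen by name and matched through their mouse Entrez gene identifiers to the rows of the array data. All 41 were on the array, out of 24232 genes, and 33 of them were among the 15637 genes bright enough to be tested. The list was sorted into 14 matrix metalloproteinases (MMP), 4 tissue inhibitors of metalloproteinases (TIMP), 8 ADAM proteases, 9 ADAMTS proteases, and 6 genes of the plasminogen system together with furin. Levels were measured on 8 one-colour Agilent arrays of primary follicular cells, labelled as mostly granulosa cells, from the preantral follicles of Swiss mice aged 8 weeks. Cells of 5 pooled mice per replicate spent 9 days in culture in all, treatments included. Near the end of this time they received 12 pmol of control siRNA or of an siRNA pool against FOXL2, a transcription factor of granulosa cells. Vehicle or 100 nM 17β-estradiol (E2), taken from an ethanol stock, was given for 10 h up to lysis, and the sources differ on whether these hours came within the 24 h of culture after transfection or followed 24 h of siRNA treatment. The 4 groups, named siControl-vehicle, siControl-E2, siFOXL2-vehicle and siFOXL2-E2 below, each hold 2 arrays from different animals. All groups share the culture and the transfection, which included a DsRed plasmid, and the cells are a primary mixture, not a clone. Since RNA came from whole cultures, fewer cells of a type and less RNA per cell cannot be told apart.

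Values are log2 scaled signals, that is, the background-subtracted spot intensity of the scanner software after scaling each array to its 75th percentile. The arrays carry no read depth, and their number, 2 per group, limits the precision. A gene is said to be called where the limma p-value, adjusted by Benjamini-Hochberg over all 15637 genes, was under 0.05. Such p-values measure the spread between these samples only. A change is a difference of log2 group means.

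Follicles grow and rupture by remodelling the matrix around and between their cells. MMPs are zinc proteases that cut collagens, laminins and other matrix proteins, and TIMPs bind and block their active sites. ADAMs are membrane-bound relatives that release growth factors and receptors from the cell surface, whereas ADAMTS proteases are secreted and cut proteoglycans or procollagens. In the plasminogen system, the activators encoded by Plau (urokinase) and Plat (tissue-type activator) turn plasminogen into plasmin, Plaur encodes the urokinase receptor, and Serpine2 and Serpinb2 encode serpins that block serine proteases. Furin removes the propeptides that keep many of these enzymes inactive.

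The siRNA target was checked first. Foxl2 (Entrez 26927) is read by a bright and a dim probe, which disagreed. The bright probe lay at 14.45 and 14.00 in siControl-vehicle, 13.93 and 13.75 in siControl-E2, 14.40 and 14.39 in the arrays labelled siFOXL2-vehicle, and 14.11 and 13.95 in those labelled siFOXL2-E2, a change of 0.18 over both treatments (limma adjusted p = 0.364). The dim probe lay between 6.35 and 7.00 with control siRNA and between 5.47 and 6.03 with FOXL2 siRNA, a change of -0.97 (limma adjusted p = 0.0199), or 51.1% of control. The gene mean, dominated by the bright probe, gave 0.18 (limma adjusted p = 0.334), so a fall of the target was seen with the dim probe alone. For this reason every direction below refers to arrays as labelled. Of the granulosa cell markers, Fst (follistatin), a known target gene of FOXL2, ranged from 11.22 to 11.35 on the control siRNA arrays and was lower on all 4 FOXL2 siRNA arrays, with a change of -2.02 over both treatments (limma adjusted p = 0.000226). Esr2, which encodes estrogen receptor beta, was also called lower (-0.46, limma adjusted p = 0.0167) and Inhbb higher (0.80, limma adjusted p = 0.0185), while Cyp19a1 (aromatase) was not called (-0.75, limma adjusted p = 0.082).

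Cell type markers set the background. Of 10 granulosa cell markers, 8 were well above background on all 8 arrays, while Fshr, the receptor for follicle-stimulating hormone, was above it on 0 of 8. Of 7 oocyte markers, 5 were above background on 0 of 8 arrays and 1, Gdf9, on all 8. Markers of other cell types were present in part. All 8 arrays showed 4 of 7 leukocyte markers (Cd68, Csf1r, Cd14 and Itgam), 2 of 5 endothelial markers (Pecam1 and Kdr), 4 of 5 markers of fibroblasts and stroma (Dcn, Lum, Thy1 and Col1a1) and 3 of 4 smooth muscle markers (Acta2, Cnn1 and Tagln). Others of these lists were above background on 0 of 8 arrays, namely the leukocyte genes Ptprc and Lyz2, the endothelial genes Cdh5, Tek and Emcn, the stromal gene Pdgfra and the smooth muscle gene Myh11. None of the tested genes of these 4 lists was called between the siRNAs, in a fit that took no account of the replicate number. The largest change was that of Col1a1 (1.10, limma adjusted p = 0.0739). In replicate 1 it lay at 9.37 and 9.39 with control siRNA and 10.46 and 10.40 with FOXL2 siRNA. The values in replicate 2 were 8.39 and 8.45, and 9.64 and 9.50. Of the 4 tested stromal genes, 3 had positive changes. Markers of the ovarian surface epithelium moved with the siRNA. Their 4 genes all had positive changes with FOXL2 siRNA and 2 of them were called higher, Msln (change over both treatments 2.07) and Upk3b (1.47), and their summed scaled signal ranged from 507 to 743 units on the control siRNA arrays and from 1762 to 2499 on the FOXL2 siRNA arrays. The summed signal of the 4 theca cell markers on the array ranged from 163996 to 187899 units with control siRNA and from 228655 to 265330 with FOXL2 siRNA. Most of this sum came from Aldh1a1 (17.28 to 17.99 on the log2 scale), which was called (0.48). Cyp17a1 and Star were tested and not called, and the luteinizing hormone receptor gene Lhcgr was above background on 0 of 8 arrays. The part of other cell types in the results below was not tested.

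With FOXL2 siRNA, averaged over vehicle and E2, 10 of the 33 tested members were called, 5 higher and 5 lower. Over all genes tested, 12.6% were called in that comparison, 6.4% higher and 6.18% lower. The 3 metalloproteinase inhibitor genes Timp1, Timp2 and Timp3, the sheddase gene Adam10 and the proteoglycan-cutting protease gene Adamts1 were higher. Both plasminogen activator genes, Plau and Plat, the serpin gene Serpine2, and the protease genes Mmp11 and Adamts10 were lower. Plau was lower with vehicle only, and its change with E2 was 0.47 (limma adjusted p = 0.336). The median change of the members was 0.07, against 0.00 over all genes tested. With vehicle alone, 7 members were called (5 higher and 2 lower, against 6.56% of all genes, 3.63% higher and 2.94% lower), and with E2 alone also 7 (4 higher and 3 lower, against 4.39% of all genes, 2.25% higher and 2.14% lower). A fit with the replicate number as a block called 18, 16 and 11 members in these comparisons, with every member called without the block among them. Its background was 27.7%, 18.7% and 14.9% of all genes. The members that the block added with vehicle were Plaur, Plat, Mmp2, Adamts2, Adamts5, Adam9, Adam23, Adamts4 and Mmp23, and those it added with E2 were Plaur, Adamts2, Adam10 and Adamts10. Members whose 4 siFOXL2 arrays lay entirely above or below their 4 siControl arrays numbered 10, against 20.9% of all genes, and 8 of these were called. The count with E2 fell to 2 without replicate 1 of siControl-E2, and to 3 without replicate 2 of siFOXL2-E2.

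**Figure D1:**
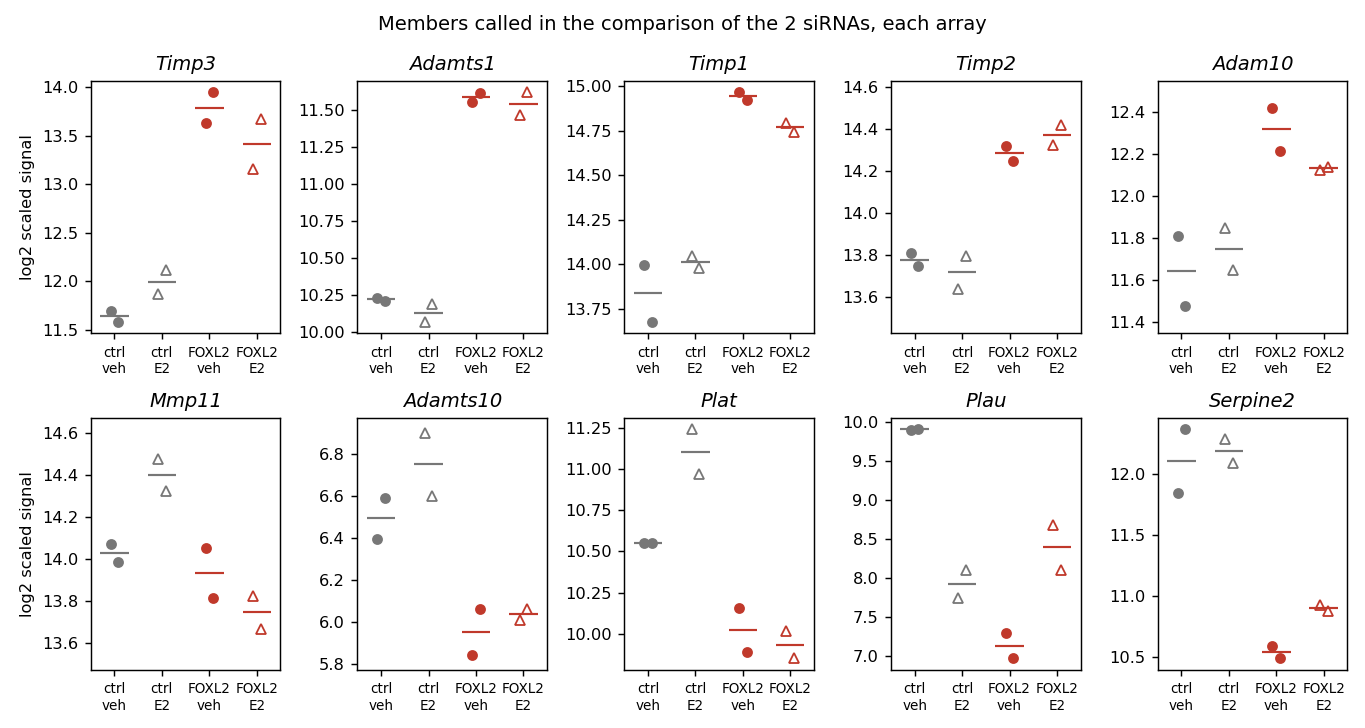
Log2 scaled signal (vertical axis) of the 10 members called for FOXL2 siRNA over both treatments, on each of the 8 arrays (filled circles vehicle, open triangles E2, grey control siRNA, red FOXL2 siRNA). Horizontal bars are the means of 2 arrays, and vertical axes differ between genes. Timp3 lay at 11.59 to 12.11 on the control siRNA arrays and at 13.16 to 13.95 on the FOXL2 siRNA arrays, while Plau was highest in siControl-vehicle.

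Among the inhibitors, Timp3 (Entrez 21859), which stays bound to the matrix and also blocks some ADAM and ADAMTS proteases, changed most. It lay at 11.70 and 11.59 in siControl-vehicle, at 11.87 and 12.11 in siControl-E2, at 13.63 and 13.95 in siFOXL2-vehicle, and at 13.16 and 13.68 in siFOXL2-E2. All 4 FOXL2 siRNA arrays lay above all 4 control arrays. The change was 2.15 with vehicle (SE 0.18, 4.43-fold, limma adjusted p = 0.00139) and 1.42 with E2 (SE 0.18, 2.68-fold, limma adjusted p = 0.00702). The call with E2 was lost without replicate 1 of siControl-E2 (1.30, limma adjusted p = 0.0678).

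Timp1 (Entrez 21857), a soluble inhibitor of most MMPs, lay at 14.00 and 13.68 in siControl-vehicle, 14.05 and 13.98 in siControl-E2, 14.97 and 14.92 in siFOXL2-vehicle and 14.80 and 14.74 in siFOXL2-E2. The groups did not overlap in either treatment. Its change was 1.11 with vehicle (SE 0.11, 2.15-fold, limma adjusted p = 0.0023) and 0.75 with E2 (SE 0.11, 1.69-fold, limma adjusted p = 0.0114). The call with E2 was lost without any single one of the 4 arrays with E2, at adjusted p from 0.056 without replicate 1 of FOXL2 siRNA to 0.0829 without replicate 2 of control siRNA.

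Timp2 (Entrez 21858), which blocks MMPs and also takes part in the activation of MMP2 by MMP14, has 2 probes that moved together. Its control siRNA arrays lay at 13.81 and 13.75 with vehicle and 13.64 and 13.80 with E2, and its FOXL2 siRNA arrays at 14.32 and 14.25 with vehicle and 14.32 and 14.42 with E2. The change was 0.51 with vehicle (SE 0.09, limma adjusted p = 0.0164) and 0.65 with E2 (SE 0.09, limma adjusted p = 0.00816). The single probes gave 0.58 and 0.60 over both treatments, each of them called. With vehicle the call was lost without replicate 1 of FOXL2 siRNA (limma adjusted p = 0.0967), replicate 2 of control siRNA (0.0834) or replicate 2 of FOXL2 siRNA (0.0795), and with E2 without replicate 1 of control siRNA (0.0736) or replicate 2 of FOXL2 siRNA (0.0724).

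Timp4, the remaining inhibitor, was near the detection limit. Its arrays spread from 1.68 to 5.20, with 5 of 8 well above background, and the change of -1.34 over both treatments carried an SE of 0.74 (limma adjusted p = 0.306).

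Promoters of the inhibitor and protease genes that moved with FOXL2 siRNA were read from the RefSeq promoter table (mouse build GRCm38.p6), which held 27 of the 41 members, and 7 of the 10 called over both treatments. The bases before the start of Timp3 (chr10:86300162-86300411, + strand), Timp1 (chrX:20869916-20870165, + strand), Adamts1 (chr16:85803114-85803363, - strand) and Serpine2 (chr1:79858666-79858915, - strand) are shown 5′ to 3′ on the strand of the gene. Among the table's members called over both treatments, these have the largest changes in either direction. Capitals mark the matches to the motifs searched.
Timp3: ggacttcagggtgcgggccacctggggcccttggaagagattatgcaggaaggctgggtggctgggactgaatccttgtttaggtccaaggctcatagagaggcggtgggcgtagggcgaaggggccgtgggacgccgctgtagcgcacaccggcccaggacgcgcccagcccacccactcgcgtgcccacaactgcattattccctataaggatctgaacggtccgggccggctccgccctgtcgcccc
Timp1: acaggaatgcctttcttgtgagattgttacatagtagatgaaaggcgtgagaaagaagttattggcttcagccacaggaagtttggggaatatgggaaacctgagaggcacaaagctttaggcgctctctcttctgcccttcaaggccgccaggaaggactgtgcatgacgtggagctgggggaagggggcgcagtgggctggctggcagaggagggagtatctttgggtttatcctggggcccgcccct
Adamts1: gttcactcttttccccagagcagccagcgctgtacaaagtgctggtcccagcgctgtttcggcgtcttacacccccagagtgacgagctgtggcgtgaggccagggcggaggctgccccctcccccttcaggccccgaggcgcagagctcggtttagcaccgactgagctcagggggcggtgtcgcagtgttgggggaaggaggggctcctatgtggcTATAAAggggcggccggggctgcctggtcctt
Serpine2: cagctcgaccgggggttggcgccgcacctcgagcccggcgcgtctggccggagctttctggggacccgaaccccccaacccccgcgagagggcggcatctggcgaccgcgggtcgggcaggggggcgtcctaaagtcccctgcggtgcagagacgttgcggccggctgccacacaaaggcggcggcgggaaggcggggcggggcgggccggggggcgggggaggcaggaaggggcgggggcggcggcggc

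Searched on both strands, from 250 bases before to 50 after the start, were an AP-1 motif (TGANTCA), a forkhead motif (TGTTTAC), a full palindromic estrogen response element and a TATA box (TATAAA). The 4 promoters shown held 1 match, the TATA box of Adamts1, which begins 32 bases before the start. Their G and C content was 65.6% in Timp3 and Adamts1, 54.4% in Timp1 and 78.8% in Serpine2. The AP-1 motif occurred in 6 of the 27 members in the table (Adam19, Mmp3, Mmp10, Mmp13, Plaur and Serpinb2), against 8.97% of all genes in it. A forkhead match occurred in 5 members (Adam8, Adam19, Furin, Mmp10 and Mmp13), against 4.05% of genes, and a TATA box in 6 (Adamts1, Furin, Mmp3, Mmp10, Mmp13 and Serpinb2), against 15.7%. The estrogen response element occurred in 0 of 27, against 0.074% of genes. No match overlapped one of another motif. Of the 7 members in the table called with FOXL2 siRNA, Adamts1 alone held any of these motifs in the window. A match describes these letters only, and the lack of a match covers only these letters in this window. The forkhead search took a single form of the motif, and introns were not searched. Binding of FOXL2 was not tested.

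In the MMP family 9 of 14 members were tested and 1 was called. Mmp11 (Entrez 17385), stromelysin 3, was lower with FOXL2 siRNA in the presence of E2. It lay at 14.07 and 13.99 in siControl-vehicle and 14.06 and 13.82 in siFOXL2-vehicle, where the groups overlapped. In the presence of E2 it lay at 14.48 and 14.33 with control siRNA and 13.83 and 13.67 with FOXL2 siRNA, a change of -0.65 (SE 0.11, limma adjusted p = 0.0193). Its 2 probes gave -0.63 and -0.70, each of them called. Of the 4 arrays with E2, leaving out any of 3 ended the call (limma adjusted p = 0.134 without replicate 1 of control siRNA, 0.0714 without its replicate 2 and 0.134 without replicate 2 of FOXL2 siRNA). Over both treatments its change was -0.37 (SE 0.08, limma adjusted p = 0.0196), which was lost without replicate 1 of siControl-E2 (0.0739), replicate 2 of siFOXL2-vehicle (0.0661) or replicate 2 of siFOXL2-E2 (0.0761).

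The other 8 tested MMPs were not called. Mmp23 ranged from 13.01 to 13.33 over the 8 arrays with a change of 0.11 over both treatments (SE 0.06, limma adjusted p = 0.257), and one of 0.24 with vehicle (limma adjusted p = 0.138, and 0.0489 with the replicate block). Mmp17, a membrane-anchored enzyme, had the largest uncalled change, -0.46 (SE 0.25, limma adjusted p = 0.297). Mmp14, the membrane enzyme that activates MMP2, ranged from 9.15 to 9.90 with a change of -0.25 (SE 0.13, limma adjusted p = 0.251, and 0.0315 in the fit with the replicate block). Mmp24 is read by 2 probes that differed, with changes of 0.66 and 0.00, neither of them called. Mmp16 was well above background on 3 of 8 arrays, all from replicate 2. The secreted enzymes Mmp3 and Mmp10 (stromelysins), Mmp9 (gelatinase B), Mmp13 (collagenase 3) and Mmp28 were above background on 0 of 8 arrays and not tested.

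The ADAMTS family held the called member with the smallest adjusted p. Adamts1 (Entrez 11504), which cuts versican and is needed for normal ovulation in mice, lay at 10.23 and 10.21 in siControl-vehicle, 10.07 and 10.19 in siControl-E2, 11.55 and 11.61 in siFOXL2-vehicle and 11.47 and 11.62 in siFOXL2-E2. The siFOXL2 arrays began at 11.47 and the siControl arrays ended at 10.23. Its change was 1.37 with vehicle (SE 0.09, 2.58-fold, limma adjusted p = 0.000662) and 1.41 with E2 (SE 0.09, 2.66-fold, limma adjusted p = 0.00131), and it was called under every setting tried, including without each single array. The difference between the 2 changes is the difference between the E2 effects, 0.05 for this gene, which was not called.

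Adamts10 (Entrez 224697), a protease of fibrillin microfibrils, was lower over both treatments, with control siRNA arrays from 6.40 to 6.90 and FOXL2 siRNA arrays from 5.84 to 6.06, so that the siRNAs did not overlap. Its change of -0.63 (SE 0.13, limma adjusted p = 0.0185) was called over both treatments and in neither treatment alone (-0.54 with vehicle, limma adjusted p = 0.145, and -0.71 with E2, limma adjusted p = 0.0814, the latter called with the replicate block at 0.0161). The brighter of its 2 probes was called (-0.58, limma adjusted p = 0.0275), the dimmer one was not (-0.95, limma adjusted p = 0.133). The call of the gene was lost without replicate 1 of siControl-E2 (0.0774), replicate 1 of siFOXL2-vehicle (0.0612), replicate 1 or 2 of siFOXL2-E2 (0.0544 and 0.0583) or replicate 2 of siControl-vehicle (0.0577).

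The remaining 5 tested ADAMTS genes were not called. Adamts9, which also cuts versican, ranged from 10.49 to 10.89 with a change of -0.04 over both treatments (SE 0.07, limma adjusted p = 0.752). Adamts2, which trims procollagens, had the largest uncalled change, 0.69 (SE 0.34, limma adjusted p = 0.246). Adamts12 was well above background on 1 of 8 arrays and Adamts15 on 0 of 8, and neither was tested.

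In all, 5 members stood apart between the 2 replicates by at least 0.4 on the log2 scale in every group, a description chosen after the values were seen. Adamts2, the aggrecanase gene Adamts4 and the gelatinase gene Mmp2 were higher in replicate 1, by 0.79 to 1.04, 0.58 to 1.49 and 0.51 to 0.64 respectively. The other aggrecanase gene, Adamts5, and Plaur were higher in replicate 2, by 0.59 to 0.97 and 0.43 to 0.77. Within each replicate Plaur was higher with FOXL2 siRNA by 0.59 and 0.75, and Adamts2 by 0.78 and 0.60, averaged over treatments. With the replicate block both were called over both treatments (limma adjusted p = 1.23e-05 and 0.000147), as were Adamts5 (0.39, 0.00254), Adamts4 (0.51, 0.0126) and Mmp2 (0.21, 0.0188), whereas without the block none of the 5 was. The replicate number was taken to mark the pool of mice, which the labels do not state outright. It coincides with a position index of the arrays on the slide, so that pool and position cannot be told apart. Cell type markers differed between the replicates by the same measure. Of the 4 stromal markers seen on all arrays, 3 were higher in replicate 1 in every group, Dcn by 0.59 to 1.08, Lum by 1.38 to 2.07 and Col1a1 by 0.83 to 0.98. The 3 smooth muscle markers seen on all arrays were higher in replicate 2 in every group, Acta2 by 1.40 to 1.65, Cnn1 by 0.68 to 1.16 and Tagln by 0.87 to 1.22. The summed signal of the stromal list ranged from 9867 to 14205 units in replicate 1 and from 5381 to 7123 in replicate 2, and that of the smooth muscle list from 13420 to 16023 and from 31847 to 34276. Their part in the gaps of the 5 members was not tested.

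**Figure D2:**
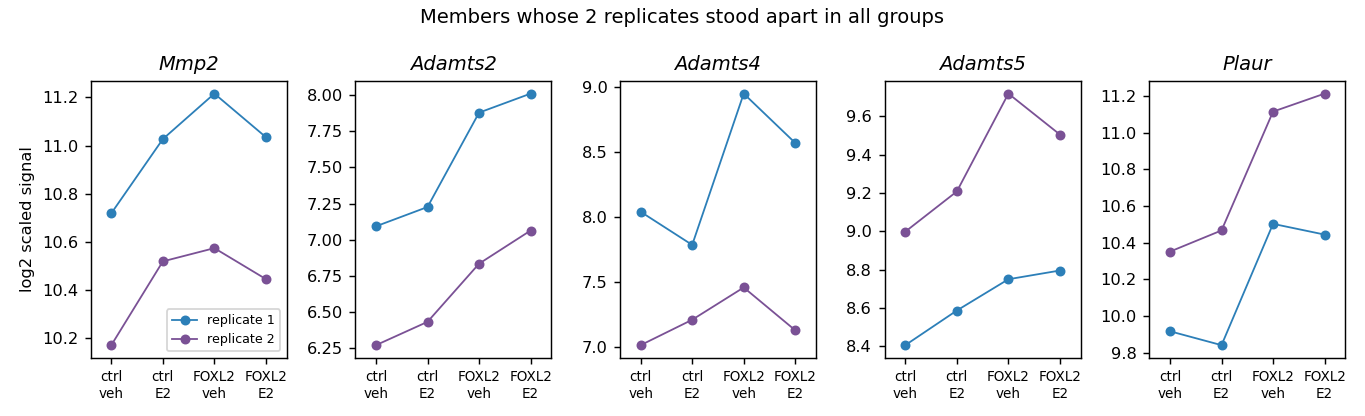
Log2 scaled signal (vertical axis) of the 5 members whose replicates differed by at least 0.4 in every group, with the 4 groups along the horizontal axis and a line for each replicate. Adamts2, Adamts4 and Mmp2 run higher in replicate 1, Adamts5 and Plaur in replicate 2, and vertical axes differ between genes.

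Of the ADAM family all 8 members were tested and 1 was called. Adam10 (Entrez 11487), the protease that releases Notch and other membrane proteins, lay at 11.81 and 11.48 in siControl-vehicle, 11.85 and 11.65 in siControl-E2, 12.42 and 12.22 in siFOXL2-vehicle and 12.13 and 12.14 in siFOXL2-E2. All FOXL2 siRNA arrays lay above all control arrays. Its change was 0.67 with vehicle (SE 0.13, limma adjusted p = 0.025) and 0.39 with E2 (SE 0.13, limma adjusted p = 0.183, and 0.013 with the replicate block), giving 0.53 over both treatments (SE 0.09, limma adjusted p = 0.00978). The call with vehicle was lost without replicate 1 of FOXL2 siRNA (0.133), replicate 2 of control siRNA (0.122) or replicate 2 of FOXL2 siRNA (0.0758).

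The other ADAM genes stayed uncalled. Adam15 ranged from 13.65 to 13.98 with a change of 0.13 over both treatments (SE 0.07, limma adjusted p = 0.327). Adam23, whose product lacks protease activity, had the largest uncalled change, 0.39 (SE 0.12, limma adjusted p = 0.0669, and 0.0257 with the replicate block), and the brightest of its 3 single probes in the test gave 0.41 (limma adjusted p = 0.0349). Adam9 differed by 0.33 (SE 0.12, limma adjusted p = 0.141, and 0.00737 with the replicate block). Adam17, the sheddase of tumour necrosis factor and of EGF-like ligands, ranged from 5.67 to 6.08 with a change of 0.15 (SE 0.15, limma adjusted p = 0.587).

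**Figure D3:**
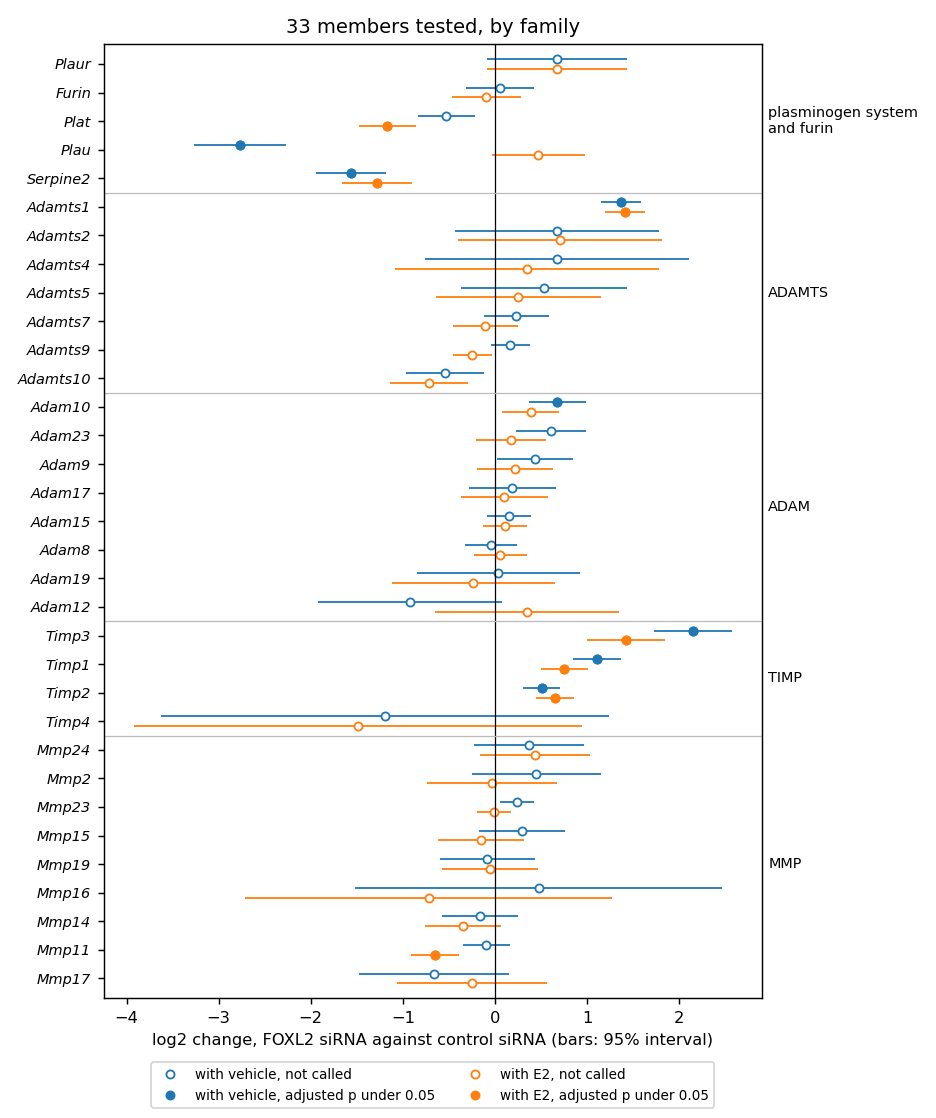
Log2 change between FOXL2 siRNA and control siRNA (horizontal axis) of the 33 tested members, grouped by family, with vehicle (blue) and with E2 (orange). Points are limma estimates, bars 95% intervals, and filled points are called at an adjusted p under 0.05. Timp1, Timp2, Timp3, Adamts1 and Serpine2 were called in both treatments, Plau and Adam10 with vehicle, and Plat and Mmp11 with E2.

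In the plasminogen system both activators and a serpin were called lower with FOXL2 siRNA over both treatments, Plau through its fall with vehicle alone. Serpine2 (Entrez 20720), protease nexin 1, which inhibits thrombin, urokinase and tissue-type activator, lay at 11.84 and 12.36 in siControl-vehicle, 12.29 and 12.09 in siControl-E2, 10.59 and 10.49 in siFOXL2-vehicle and 10.92 and 10.88 in siFOXL2-E2. The siRNAs did not overlap. Its change was -1.56 with vehicle (SE 0.16, 2.95-fold lower, limma adjusted p = 0.00259) and -1.29 with E2 (SE 0.16, 2.44-fold lower, limma adjusted p = 0.00699). The call with E2 was lost without replicate 1 of siControl-E2 (0.0678) or replicate 2 of siFOXL2-E2 (0.0512).

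Plat (Entrez 18791) lay at 10.55 on both arrays of siControl-vehicle, at 11.24 and 10.97 in siControl-E2, at 10.16 and 9.89 in siFOXL2-vehicle and at 10.02 and 9.85 in siFOXL2-E2. It was highest in siControl-E2, and its FOXL2 siRNA arrays were all below its control arrays. Its change was -1.17 with E2 (SE 0.13, 2.25-fold lower, limma adjusted p = 0.00478) and -0.53 with vehicle (SE 0.13, limma adjusted p = 0.06, and 0.00164 with the replicate block).

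Plau (Entrez 18792), the urokinase gene, was the member with the largest change and the one whose order of groups differed. It lay at 9.90 and 9.91 in siControl-vehicle, 7.75 and 8.10 in siControl-E2, 7.30 and 6.97 in siFOXL2-vehicle and 8.68 and 8.11 in siFOXL2-E2. The level was thus highest in siControl-vehicle and lowest in siFOXL2-vehicle, and the 2 groups with E2 lay between them with adjacent values of 8.10 and 8.11. With vehicle, it was lower with FOXL2 siRNA, at a change of -2.77 (SE 0.22, 6.81-fold lower, limma adjusted p = 0.0011), whereas with E2 the change was 0.47 (SE 0.22, 95% interval -0.03 to 0.97, limma adjusted p = 0.336). The mean of these, -1.15 (limma adjusted p = 0.00293), therefore stands for neither treatment. It was above background on all 8 arrays and is read by 1 probe.

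The remaining plasminogen genes and furin were not called. Plaur ranged from 9.84 to 11.21 with a change of 0.67 over both treatments (SE 0.23, limma adjusted p = 0.104), described above with the replicates. Furin ranged from 11.02 to 11.63 with a change of -0.02 (SE 0.11, limma adjusted p = 0.94). Serpinb2 was above background on 0 of 8 arrays and not tested.

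The second axis of the design asks how E2 changed the members and whether FOXL2 siRNA altered that response. By limma, 0 members were called for E2 with control siRNA (0.0192% of all genes were called), 0 with FOXL2 siRNA (0.0128%) and 0 over both siRNAs (0% of all genes). Without adjustment, 4, 1 and 2 members had a p under 0.05, against 4.58%, 3.06% and 2.3% of all genes. The difference between the 2 E2 effects was called for 1 member, Plau, against 0.243% of all genes, with 5 members under 0.05 before adjustment (4.91% of all genes). The fit with the replicate block called 3 members with control siRNA (1.16% of all genes), 1 with FOXL2 siRNA (0.614%), 0 over both (0.0512%) and 3 for the difference (2.12%).

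With control siRNA, Plau differed between E2 and vehicle by -2.15 in replicate 1 and -1.80 in replicate 2. With FOXL2 siRNA the corresponding values were 1.39 and 1.13, of the opposite sign. The estimated change was -1.98 with control siRNA (SE 0.22, limma adjusted p = 0.0651), which did not pass the threshold but did under normexp background correction (0.0285), with the 2 groups alone (0.0483), with the replicate block (0.000223) and without replicate 1 or 2 of siFOXL2-E2 (0.0271 and 0.0274). The study's own rule of a change of at least 1 exceeding 2 times the summed SDs, met by 0.454% of all genes with control siRNA, held Plau as its single member, and with FOXL2 siRNA it held 0 members (0.217% of all genes). With FOXL2 siRNA the change was 1.26 (SE 0.22, limma adjusted p = 0.355, and 0.00617 with the replicate block). The difference between both effects was 3.24 (SE 0.31, 95% interval 2.53 to 3.95, limma adjusted p = 0.0147). It was lost without replicate 1 or 2 of siControl-vehicle (0.0585 and 0.0693), replicate 1 or 2 of siControl-E2 (0.0945 and 0.0625) or replicate 2 of siFOXL2-vehicle (0.0753), at values of 3.06 to 3.42. The changes of Plau with FOXL2 siRNA and with E2 share the 2 arrays of siControl-vehicle.

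**Figure D4:**
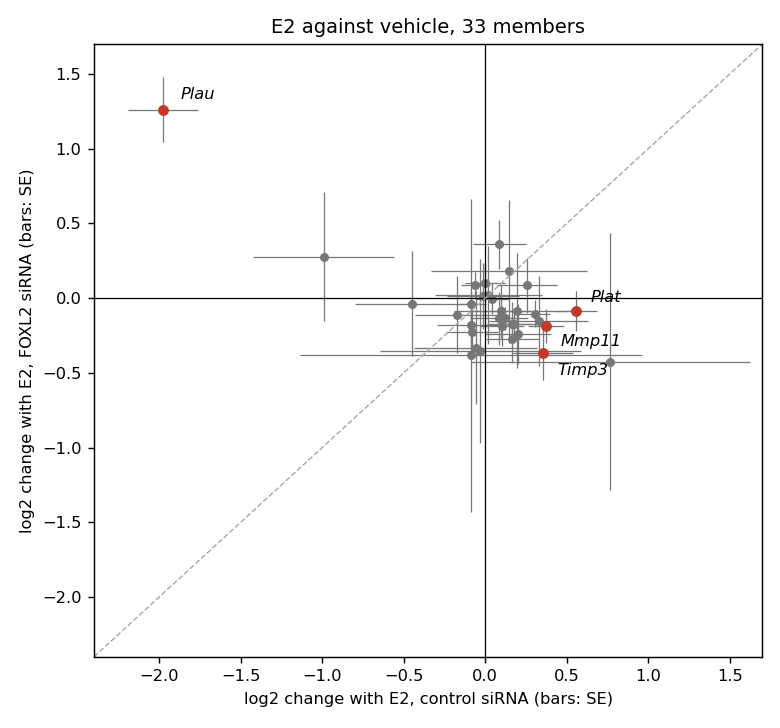
Log2 change with E2 of the 33 tested members, with control siRNA (horizontal axis) and with FOXL2 siRNA (vertical axis). Bars are SE, the dashed line marks equal changes, and the 4 members in red are named. Plau lies at -1.98 and 1.26, while the changes of the other members are mostly near 0.

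Other members with an unadjusted p under 0.05 for E2 had smaller differences. With control siRNA, Plat differed by 0.55 (SE 0.13, limma adjusted p = 0.596), Mmp11 by 0.37 (SE 0.11, limma adjusted p = 0.815) and Adamts9 by 0.30 (SE 0.09, limma adjusted p = 0.832). With the replicate block Plat and Mmp11 were called with control siRNA (0.0136 and 0.0461), and so was the difference of their E2 effects, -0.64 for Plat and -0.56 for Mmp11 (0.0249 and 0.0215). Timp3 differed by 0.35 with control siRNA and by -0.37 with FOXL2 siRNA, and the difference of -0.72 (SE 0.26, limma adjusted p = 0.846) was not called. For E2, the median change of the members was 0.09 (siControl) and -0.11 (siFOXL2), beside -0.01 and -0.03 over all genes.

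A wider list of 73 genes of the same pathways was set beside the members, and 46 of them were tested. With FOXL2 siRNA over both treatments 17 of these 46 were called, 11 higher and 6 lower. Over all genes tested the shares were 12.6%, 6.4% higher and 6.18% lower, which also stand beside the counts of the single lists below. The median change of the 46 was 0.13. None of the 9 further MMP genes on the list was bright enough to be tested. Among 6 further ADAM genes tested, Adamdec1, Adam2 and Adam28 were lower and Adam33 was higher (1.32, limma adjusted p = 0.00274). Adam2, a sperm surface gene, was not well above background on any FOXL2 siRNA array, so its fall is at least 4.61-fold with vehicle (limma adjusted p = 0.0255) and at least 5.21-fold with E2 (0.0143), against a bound set by the dimmest detected probes of each array. Adam28 was likewise at background on the FOXL2 siRNA arrays. By the same measure it was at least 2.08-fold lower with E2 (limma adjusted p = 0.037), while with vehicle the bound was 1.06-fold and it was not called (0.315). Adamdec1 was at least 2.46-fold lower with vehicle (limma adjusted p = 0.00988) and had a change of -2.14 with E2 (0.0121).

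Among ADAMTS-like genes with membrane inhibitors and among other serine protease inhibitors, all called genes were higher with FOXL2 siRNA over both treatments. The serpin gene Serpine2, a member, was lower (-1.42). Among 4 tested ADAMTS-like genes and membrane inhibitors, Adamtsl5 (0.84, limma adjusted p = 0.00113) and Papln (1.30, 0.0046) were higher. Among 8 other serine protease inhibitors tested, 3 were higher and 0 lower, with Serpinb9, an inhibitor of granzyme B, at 0.64 (0.00115), Serpinb6a at 0.31 (0.0207) and Serpina5, the protein C inhibitor, as the third. Serpina5 was not well above background with control siRNA and E2, and lay at least 3.10-fold higher with FOXL2 siRNA and E2 (limma adjusted p = 0.0119). With vehicle its change was 1.16 (limma adjusted p = 0.0518).

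Genes that hold or process plasminogen and zymogens moved in both directions. Of 4 tested plasminogen partners, S100a10 (0.79, limma adjusted p = 0.00464) and Anxa2 (0.32, 0.0121), which form the annexin A2 complex that binds plasminogen at the cell surface, were higher. Of the 3 convertases beside furin, Pcsk5 (-1.44, 0.00252) and Pcsk7 (-0.37, 0.0367) were lower. Of 6 further secreted proteases, Pappa, which cuts IGF-binding proteins, was higher at 0.89 (0.00782) and Htra1 at 0.32 (0.0158). Of 8 cathepsin and cystatin genes Ctsl was lower (-0.34, 0.0315), and of 4 further ADAMTS genes Adamts14, a procollagen protease, was higher (0.60, 0.00368). Of 3 proteoglycan substrates 0 were called over both treatments. Bcan (brevican) was called for the difference between the E2 effects at 4.09 (SE 0.56, limma adjusted p = 0.0446), with a change of -1.67 with vehicle and 2.42 with E2 for FOXL2 siRNA. It was well above background on 7 of 8 arrays. In 2 groups it lay near the detection limit, at 3.58 and 2.84 in siControl-E2 and at 3.65 and 3.86 in siFOXL2-vehicle, so these sizes are uncertain.

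**Figure D5:**
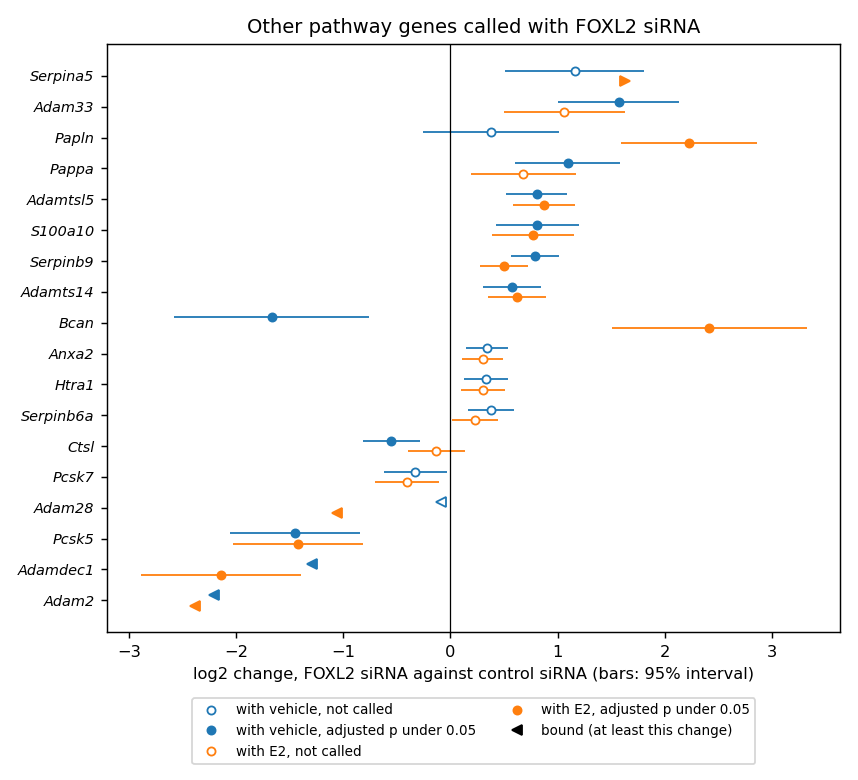
Log2 change between FOXL2 siRNA and control siRNA (horizontal axis) of the other pathway genes called in any of the comparisons of the siRNAs, with vehicle (blue) and with E2 (orange). Circles are limma estimates with 95% intervals, triangles without intervals are bounds for genes not well above background in a group, and filled symbols are called. Adam2 is shown by its bounds of 4.61-fold and 5.21-fold. Bcan lies at -1.67 with vehicle and at 2.42 with E2, and was near the detection limit in siControl-E2 and siFOXL2-vehicle.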

How the data were processed

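Per the file headers, the deposited scanner files hold spot intensity values from Agilent Feature Extraction, background-subtracted by the authors' software. Here 3671 control spots of 62976 and 42 non-uniform probes were left out, 55639 probes were used, values were scaled by the 75th percentile of the array (275 to 367 units), and probes of an Entrez gene were averaged. The share of probes well above background was 51.3 to 55.6% on the 8 arrays, with 0 saturated. A median scaled signal of 10 was required, which 15637 of 24232 genes reached. Symbols came from a RefSeq table (22349 matched). The authors' deposited log2 table equalled these values within 0.001 after an array constant at 98.7 to 98.9% of genes, with column medians from -4.24 to -3.95. It served as an alternative, and its centring is not fully stated.

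Group means were fitted over 8 arrays with limma 3.58.1 (R 4.3.3), two-sided, with an intensity trend and 4 residual degrees of freedom. Replicates correlated at 0.989 to 0.992 across genes. Same-numbered arrays deviated together (correlations of 0.327 to 0.445 over 6 pairs of groups), so the number was taken to mark a shared pool of mice, and the fit with it as a block is given where it changes a call. Alternatives were normexp with an offset of 50 on the median signals (mean signals were not used here), quantile normalization, median centring, other filters, probe choices and fits, and leaving out each array. A gene on no array of a group well above background has a bound there, the mean over its arrays of the higher of its own signal and the lowest signal among detected probes. Members and lists were chosen with earlier results of these data known. Called members are given in full, others by the brightest and the largest uncalled change in each family. The fit was tested on simulated data.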

Additional observations from a re-analysis of the deposited data

Results flagged for a closer look

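The response of Plau to E2 differed between the siRNAs by the test of the difference itself, which gave 3.24 on the log2 scale (FOXL2 siRNA minus control siRNA, SE 0.31, limma adjusted p = 0.0147). Plau was lower with E2 in 2 of 2 replicates with control siRNA and higher in 2 of 2 with FOXL2 siRNA. Its adjusted p lay between 2.87e-05 and 0.0945 over the alternatives. With 2 arrays per group, no array could be examined as an outlier within its group.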

How the results depend on the processing

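The direction of every called member was the same under all alternatives run. The gene-level change of Foxl2 reversed with its dim probe alone, at -0.97 against 0.18. Members called with FOXL2 siRNA were 16 with vehicle, 11 with E2 and 18 over both treatments with the replicate block, against 7, 7 and 10. For E2 with control siRNA, against 0, the count was 3 with the replicate block, 1 with normexp, 1 with the 2 groups alone and 1 by the study's fold rule. For E2 with FOXL2 siRNA it was 1 with the replicate block. For the difference between the E2 effects, against 1, it was 3 with the replicate block and 0 without the intensity trend. Leaving out 1 array in turn gave 5 to 7 members called with vehicle, 2 to 7 with E2, 8 to 10 over both treatments, 0 to 1 for E2 with control siRNA, 0 to 0 for E2 with FOXL2 siRNA and over both siRNAs, and 0 to 1 for the difference. A leave-one-out fit that leaves a group with 1 array assumes that it varies like the others. Without the intensity trend the calls of Adam10 and Timp2 with vehicle (adjusted p = 0.0673 and 0.0538), of Mmp11 with E2 and over both treatments (0.0651 and 0.055) and of the Plau difference (0.0527) were lost. Adam10 with vehicle was also lost with the 2 groups alone (0.0717), and Adamts10 over both treatments with normexp (0.0551) and with no filter (0.0531). Quantile normalization, median centring and the authors' table left each of these counts as it was. With 2 arrays per group, changes near the spread between replicates were not detectable, and dim members have only bounds.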
